A study of Mus musculus with 960 samples.

Results

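The regions described here were the isolated windows of the accessible-chromatin list of a mouse breast tumour. A window was counted as isolated where its midpoint lay more than 50 kb from the midpoint of every other window on its chromosome and at most 100 kb from the start site of a protein-coding transcript. This rule selected 2158 of the 50000 windows (4.32%), and the remaining 43136 windows within 100 kb of a start site served as the rest. Since the members were chosen by their distance to other windows, that distance is a description and carries no test. A further 1004 windows were as isolated but lay over 100 kb from any protein-coding start site, and were not members.

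The windows came from Pi-ATAC, a single-cell ATAC-seq in which fixed and permeabilised cells are stained with antibodies, tagged in bulk by Tn5 transposase and index-sorted 1 per well. The cells came from the MMTV-PyMT mouse, in which the mammary tumour virus promoter drives the polyoma middle T oncogene in mammary epithelium, and all cells pooled here share that background. The labels give 960 wells on 10 plates, with antibodies against EpCAM, which marks epithelium, and HIF1α, which accumulates when oxygen is low, on 8 plates and against EpCAM and CD45, which marks blood cells, on the other 2. The list was called on pooled cells, so isolated windows and the rest come from 1 sample with no replicates, and whether the CD45 wells entered the pool is not given in the sources used here. The labels name no animal. Read depth behind each window is unknown, so each interval and p-value below describes windows or chromosomes of this list and not animals.

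Accessible chromatin marks stretches of DNA free of tightly packed nucleosomes, mostly promoters and distal elements such as enhancers and insulators. In active regions such elements cluster, and an enhancer often lies near the promoter it acts on. A window alone over a long stretch is therefore either the promoter of a gene with no other listed element around it or a distal element on its own. CTCF is the zinc finger protein of insulators and chromatin loops. ETS and NRF1 factors bind many promoters of widely used genes. NFI factors bind distal elements in many epithelia, at a site whose core is TTGGCA.

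The sequences below show 3 kinds of member, the most isolated first, with the motif in capitals and all bases on the plus strand of mm9 from 5′ to 3′. The 5 distal members that held the CTCF consensus and lay farthest from any other window are shown with 30 bases on each side of the match. They lay in an intron of Scn2a1, a neuronal sodium channel (chr2:65506613-65506684), and between genes nearest to Slc7a12, an amino acid transporter (chr3:14381728-14381799), Rpl30-ps8 (chr12:100322434-100322505), Oxgr1, an oxoglutarate receptor (chr14:120537237-120537308), and Cdx2, an intestinal homeobox factor (chr5:148104856-148104927). Their nearest listed neighbours were 253.9, 152.1, 148.4, 137.7 and 125.1 kb away.
Scn2a1: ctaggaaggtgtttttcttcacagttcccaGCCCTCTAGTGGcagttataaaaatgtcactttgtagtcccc
Slc7a12: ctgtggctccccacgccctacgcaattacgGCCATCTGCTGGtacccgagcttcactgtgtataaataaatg
Rpl30-ps8: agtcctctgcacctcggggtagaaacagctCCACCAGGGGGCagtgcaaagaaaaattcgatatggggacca
Oxgr1: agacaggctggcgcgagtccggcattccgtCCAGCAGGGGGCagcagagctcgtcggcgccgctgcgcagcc
Cdx2: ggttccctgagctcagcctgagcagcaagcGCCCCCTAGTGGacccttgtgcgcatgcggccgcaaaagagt

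Among promoter members, the 3 most isolated with an ETS or NRF1 match all held the ETS letters CCGGAAG. They were the promoters of Gm5784 (chr12:19393432-19393498, 776.8 kb to the nearest window), Gria3, a glutamate receptor subunit (chrX:38755435-38755501, 456.6 kb), and Fam172a (chr13:77847940-77848006, 454.5 kb). In the Fam172a window the match lay 2 bp from the summit.
Gm5784: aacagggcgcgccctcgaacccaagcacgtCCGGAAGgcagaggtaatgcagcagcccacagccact
Gria3: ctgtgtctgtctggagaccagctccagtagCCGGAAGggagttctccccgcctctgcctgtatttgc
Fam172a: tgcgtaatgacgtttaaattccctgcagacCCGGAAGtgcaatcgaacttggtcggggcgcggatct

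The NFI core TTGGCA, or TGCCAA on the other strand, differed most in share between distal members and the distal rest below, and its 2 most isolated bearers are shown for that reason, chosen after the values were seen. They lay between genes, 97.2 kb from the nearest start site, that of Cdh18, a cadherin (chr15:22381346-22381411), and 13.7 kb from that of Gm16506 (chr14:44291619-44291684). These were also the 2 most isolated distal members of all, with 2333 and 1194 kb to the next window.
Cdh18: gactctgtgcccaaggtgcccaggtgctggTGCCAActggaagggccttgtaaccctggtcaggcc
Gm16506: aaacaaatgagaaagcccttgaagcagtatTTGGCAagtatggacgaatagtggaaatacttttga

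The distance of an isolated window to its nearest neighbour ranged from 50.0 kb to 2358 kb, with a median of 77.1 kb and quartiles of 60.0 and 116.1 kb. In the rest the median was 0.875 kb. Of the members 31.4% lay over 100 kb from any other window and 10.3% over 200 kb, while 43 lay over 500 kb and 13 over 1000 kb, of which 7 were promoter and 6 distal members. Just inside the rule was an intronic window nearest to Herc6, a ubiquitin ligase, at 50011 bp. So were the promoter of Mios and the promoter window shared by Gm16039 and Rpa3, which are each other's neighbour at 50030 bp. Just outside it were the promoters of Anxa7 at 49977 bp, D630045J12Rik at 49958 bp and Pole4, a DNA polymerase subunit, at 49948 bp.

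Isolated windows were found on all 20 chromosomes. They made up 8.85% of the 1141 windows of chromosome X, against 2.79% on chromosome 8 (84 of 3016) and 2.92% on chromosome 17 (70 of 2399), and between 2.96 and 5.63% on the other chromosomes. On chromosome X the members were mostly promoters (63.4%), as were the windows of the rest there (57.7%). The assembly had an unknown stretch within the 100 kb around 25 members (1.16%) and 1.01% of the rest. This covers 50 kb to each side only. Gaps farther out towards the next window were not examined, nor was how well reads can be mapped there.

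**Figure D1:**
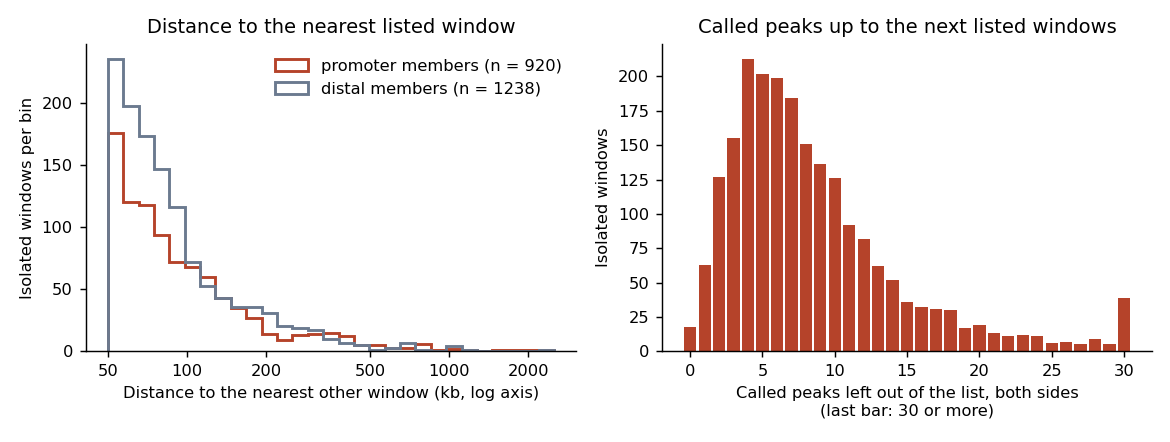
Left, distance from each isolated window to the nearest other window (kb, log axis), with promoter and distal members as separate outlines; both pile up near 50 kb and reach past 2000 kb. Right, called peaks left out of the list between a member and its next listed windows, summed over both sides; the median is 7 and 18 members have none.

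The names of the windows carry the number of the called peak, which runs along the genome up to 109284, while 38400 calls (35.1%) kept a window. A number skipped between neighbours was read as a called peak that did not reach the top 50000, an assumption, since the list holds no scores. Around the 2145 members with a listed window on both sides, a median of 7 such left-out calls (quartiles 4 and 11, highest 83) lay up to the next listed windows. Only 18 members (0.839%) had none, against 13779 of 43115 windows of the rest (32.0%), whose stretches are shorter by the rule. Per length, the stretches next to a member held 18.7 left-out calls per Mb, against 66.0 per Mb in other stretches up to 50 kb and 21.5 per Mb in other stretches over 50 kb.

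The 18 members with no left-out call up to their neighbours were 8 promoters and 10 distal windows. On chromosome X they included the neighbouring promoters of Clcn5, a chloride transporter of endosomes, and Akap4, a sperm tail protein, 120.3 kb apart, and the promoters of Apex2, a DNA repair nuclease, and Rragb, a GTPase of nutrient sensing. Others were the promoter of Zfp808, the promoter window shared by Glmn and Rpap2, and an intron of Sox6, a transcription factor, 90.1 kb from the next window. The window at Akap4 held 2 CpGs and that at Glmn 44.

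Of the isolated windows, 920 (42.6%, exact Clopper-Pearson 95% interval 40.5 to 44.8) lay within 1 kb of a protein-coding start site and are called promoter members, against 17014 of the rest (39.4%, 39.0 to 39.9). Intergenic windows made up 30.4% of members and 27.4% of the rest. Introns held 24.6% of members and 29.9% of the rest. Coding exons held 1.62% of members and 2.02% of the rest. 3′ UTRs held 0.695% of members and 1.14% of the rest, and 5′ UTRs 0.0927% of members and 0.121% of the rest. Averaged over chromosomes, the promoter share of members exceeded that of the rest by 2.85 percentage points (SD 5.94, 20 chromosomes), with 15 chromosomes higher and 5 lower. A paired permutation test over chromosomes gave p = 0.0455 and adjusted p = 0.0531 over 7 comparisons, so the difference did not pass the threshold of 0.05. It also turned with the definitions. With promoters counted within 500 bp of a start site it was 8.05 points (adjusted p = 0.00014), and within 2500 bp it was -1.66 points (adjusted p = 0.214). The limit on start site distance in the rule moved it more, to 13.26 points at 50 kb (adjusted p = 2.8e-05) and to -7.08 points with no limit (adjusted p = 4.7e-05). The rule and the promoter class use the same start site distance. The p-values for promoter share are therefore not independent of the rule, and no conclusion is drawn from them.

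Summit positions, which move with this definition, differed as well, and their part in the result was not tested. In promoter members the summit was a median of 0.071 kb from the start site (quartiles 0.029 and 0.141 kb), against 0.131 kb in the rest (0.052 and 0.416 kb). Within 250 bp lay 806 of the 920 (87.6%), against 63.8% of the promoter windows of the rest. The rest is a mixture in this respect. Of promoter windows with their nearest neighbour under 1 kb away, 53.0% lay within 250 bp of a start site, while of those with the neighbour 5 to 20 or 20 to 50 kb away 89.0 and 91.2% did. Promoter members served 1 gene in most cases, since 66 of them (7.17%) lay within 1 kb of start sites of 2 or more genes, against 10.4% of the promoter windows of the rest. Of the members, 66 (3.06%) carried the letter of a call with several summits, against 44.8% of the rest, and each member was the sole kept window of its call. A second kept summit within 50 kb bars a window from membership. The rule therefore largely fixes both values, and they are no finding about the members.

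The genes of promoter members were longer. Length was counted per promoter window, as that of the longest gene within 1 kb, so a gene with several windows counts more than once. The median was 51.4 kb over promoter members, against 28.7 kb over promoter windows of the rest. The median was higher for members on 20 of 20 chromosomes, from 28.9 kb on chromosome 17 to 72.4 kb on chromosome 4 in members, against 17.1 kb on chromosome 7 to 58.7 kb on chromosome 18 in the rest. The mean difference of the chromosome medians was 0.73 on the log2 scale (SD 0.43, permutation p = 2e-05, adjusted p = 3.5e-05). A gene over 100 kb stood at 30.1% of promoter members and 16.6% of promoter windows of the rest. For genes under 10 kb these shares were 11.1% of members and 20.6% of the rest. A long gene puts its own other end, and its neighbours, farther from its promoter, so length is not wholly independent of a rule on distance. Where only windows with 40 to 45% GC in the 100 kb around them were compared, an alternative added after the values were seen, the difference was 0.27 on the log2 scale and did not pass (adjusted p = 0.213).

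Compared with the rest, isolated windows lay in surroundings with fewer protein-coding genes and a lower GC content. The 100 kb around a member overlapped 1.56 protein-coding genes on average, against 2.73 in the rest, and was lower on 20 of 20 chromosomes (mean difference -1.12, SD 0.411, permutation p = 2e-05, adjusted p = 3.5e-05). No protein-coding gene overlapped that stretch for 11.1% of members and 3.83% of the rest, and 4 or more did for 5.42% of members and 26.3% of the rest. The GC content of the same 100 kb averaged 42.7% around members and 45.9% around the rest. It too was lower on 20 of 20 chromosomes, by 2.87 percentage points (SD 0.585, adjusted p = 3.5e-05), from 40.5% on chromosome X to 44.2% on chromosome 11 in members, against 42.5% on chromosome X to 47.3% on chromosome 7 in the rest. About 2 in 5 windows of the list lie at start sites, so a stretch with few genes has fewer windows, and gene number is not wholly independent of the rule either. Windows of the rest often lie close together, so for gene number and GC the same stretch can count many times there. Against windows with the neighbour 20 to 50 kb away the differences were smaller, at -0.77 genes and -1.87 percentage points of GC (permutation adjusted p = 4.7e-05 for each).

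**Figure D2:**
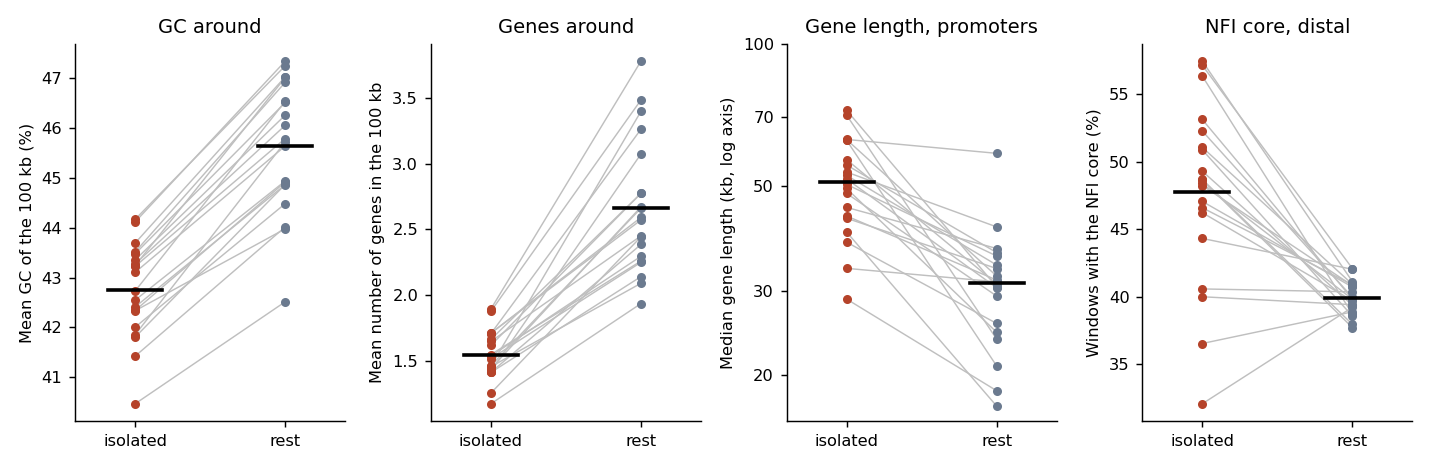
Each dot is 1 chromosome, isolated windows on the left and the rest on the right, joined by a line, with black bars for the mean of 20 chromosomes. From left to right are first mean GC of the surrounding 100 kb (%) and protein-coding genes in it. Then follow median gene length, counted per promoter window (kb, log axis), and share of distal windows with the NFI core (%). The first 2 are lower and the third higher in isolated windows on all 20 chromosomes, the last higher on 18.

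At promoters, members held more CpG than the rest, with a mean of 38.4 CpG per 500 bp window in members, against 34.8 in the rest (mean chromosome difference 3.69, SD 2.82, higher on 18 of 20 chromosomes, permutation adjusted p = 3.5e-05). Windows with at least 50% GC and an observed to expected CpG ratio of at least 0.6, called island-like, were 76.5% of members (exact interval 73.6 to 79.2) and 68.1% of the rest. This difference moved with the position of the summit. Among windows within 250 bp of a start site, an alternative added after the values were seen, it was 0.84 CpG (permutation adjusted p = 0.19), and against promoter windows with the neighbour 20 to 50 kb away it was -0.30 CpG. Distal members held a mean of 9.26 CpG, against 9.98 in the rest, and the difference did not pass (adjusted p = 0.0531). Island-like distal windows were 78 of 1238 members (6.30%) and 6.29% of the rest.

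Of the 15 motifs searched on both strands at promoters, 4 passed the threshold between members and the rest (26.7% of those tested). SP/KLF factors bind GC-rich boxes, here GGGCGG, and these letters stood in 77.8% of promoter members and 70.1% of the rest (difference 7.89 points, 18 of 20 chromosomes higher, permutation adjusted p = 0.00195). The ETS letters stood in 23.4% of members and 17.5% of the rest (6.06 points, 15 of 20 chromosomes, adjusted p = 0.0042). The TEAD letters CATTCC stood in 15.3% of members and 18.8% of the rest (-3.44 points, 18 of 20 chromosomes lower, adjusted p = 0.025). The CTCF consensus stood in 4 of 920 members (0.435%, exact interval 0.119 to 1.11) and in 1.16% of the rest (1.00 to 1.33). The difference was -0.74 points, with 17 of 20 chromosomes lower (permutation adjusted p = 0.0386). With 4 such members, most chromosomes had none and so count as lower. The test cannot decide on so rare a match, and no conclusion is drawn from it. Among windows within 250 bp of a start site, none of the 15 passed by the same permutation test, with 3 at an unadjusted p below 0.05, and the SP/KLF difference was 0.96 points there (p = 0.536) and the ETS difference 3.50 points (p = 0.0325). Against promoter windows with the neighbour 20 to 50 kb away none of the 15 passed, with 3 at an unadjusted p below 0.05, and the ETS difference was -4.00 points and the SP/KLF difference -0.17 points. Against sole windows of a call the ETS difference was 2.01 points (adjusted p = 0.468).

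Of the 15 motifs in distal windows, 2 differed (13.3% of those tested). The NFI core stood in 47.6% of 1238 distal members (exact interval 44.8 to 50.4) and in 39.9% of 26122 distal windows of the rest (39.3 to 40.5). It was higher on 18 of 20 chromosomes, by 7.84 points (SD 6.47, permutation adjusted p = 0.00195), from 32.1% on chromosome 11 to 57.4% on chromosome 18 in members, against 37.7 to 42.1% in the rest. Against distal windows with the neighbour 20 to 50 kb away alone, the difference was 5.72 points and did not pass (adjusted p = 0.11). In all windows of the list the core was present in 33.2%, and in promoter windows it stood in 17.3% of members and 18.8% of the rest. The full palindromic NFI site, TTGGC and its reverse complement 5 bases apart, stood in 2 distal members (0.162%) and 0.165% of the distal rest. SP/KLF letters were less frequent, at 16.0% of distal members against 20.1% of the rest (-3.68 points, adjusted p = 0.0042), and with 40 to 45% GC in the surroundings that difference was 0.27 points (adjusted p = 0.941).

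Distal members had a mean GC content of 49.4% within the window, against 51.4% in the rest, so the NFI shares are given by GC too. With less than 40% GC in the surrounding 100 kb, 48.7% of distal members held the core (exact interval 42.5 to 54.9), against 40.5% of the rest (36.8 to 44.2). With 40 to 45% it was 49.0% of members against 40.1% of the rest, and with 45% and over 43.5% of members against 39.8% of the rest. In the middle band, added after the values were seen, the permutation test over chromosomes gave 8.92 points and adjusted p = 0.0472. By GC of the window itself the shares were 55.1% of members and 41.4% of the rest under 45% GC, 47.9% of members and 43.0% of the rest at 45 to 50%, and 43.2% of members and 38.0% of the rest at 50% and over.

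The other 13 motifs did not pass in distal windows. AP-1, the factor of TGANTCA, stood in 18.3% of distal members and 18.4% of the rest (0.06 points, SD 4.83, adjusted p = 0.981). The letters ACGTG or GCGTG that hypoxia-inducible factor binds stood in 47.2% of distal members and 49.5% of the rest (adjusted p = 0.319), and at promoters in 79.7% of members and 76.6% of the rest (adjusted p = 0.0807). GRHL, a factor of epithelia, stood in 6.06% of distal members and 6.04% of the rest. The CTCF consensus stood in 34 distal members (2.75%, exact interval 1.91 to 3.82) and 2.26% of the rest, a difference of 0.61 points (SD 2.23) with 11 chromosomes higher and 9 lower (adjusted p = 0.234 over the 7 single comparisons). In all windows of the list the CTCF consensus stood in 1.788%, the ETS letters in 9.47%, SP/KLF in 37.2% and AP-1 in 14.8%.

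**Figure D3:**
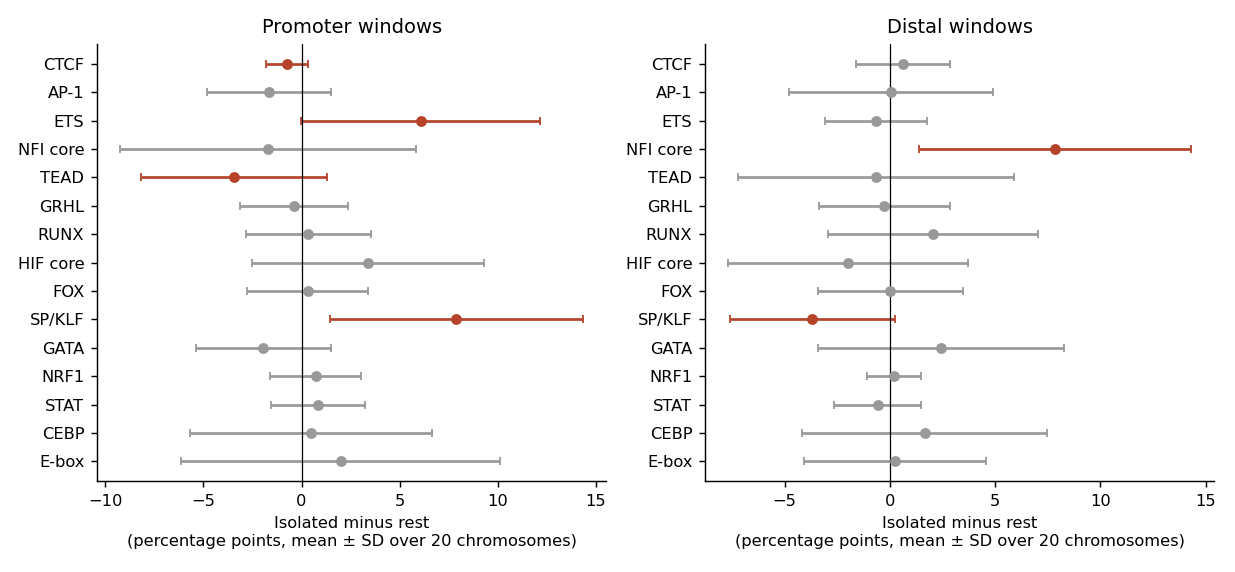
Difference in the share of windows with each of 15 motifs, isolated minus rest in percentage points, as the mean of 20 chromosomes with SD bars, for promoter (left) and distal (right) windows. Red marks an adjusted p below 0.05: at promoters CTCF, ETS, TEAD and SP/KLF, in distal windows the NFI core (7.84 points) and SP/KLF (-3.68 points).

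Split more finely by distance, promoter share did not follow an even trend, while GC and gene number of the surroundings fell with distance from 5 to 20 kb on. Promoter share was 40.2% with the nearest window 50 to 100 kb away, 49.0% at 100 to 200 kb and 45.5% over 200 kb, against 37.4% at 20 to 50 kb, 27.8% at 5 to 20 kb, 20.6% at 1 to 5 kb and 50.8% under 1 kb. Median gene length at promoters was 46.6, 69.0 and 63.4 kb in the 3 isolated bins, against 30.5 kb at 20 to 50 kb and 20.5 kb at 5 to 20 kb. The genes overlapping the surrounding 100 kb averaged 1.596, 1.58 and 1.26 in the isolated bins, 2.34 at 20 to 50 kb and 2.78 at 5 to 20 kb. Mean GC of that stretch was 43.3, 42.0 and 40.1% in the isolated bins. It was 44.7% at 20 to 50 kb, 46.2% at 5 to 20 kb, 46.8% at 1 to 5 kb and 45.6% under 1 kb. The share of distal windows with the NFI core was 47.1, 49.1 and 47.9% in the isolated bins, and 41.7% at 20 to 50 kb, 43.3% at 5 to 20 kb, 41.8% at 1 to 5 kb and 36.7% under 1 kb. The CTCF share was 3.05, 2.59 and 0.826% in the isolated bins, where the last is a single window (exact interval 0.0209 to 4.52%), and 2.76% at 20 to 50 kb.

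**Figure D4:**
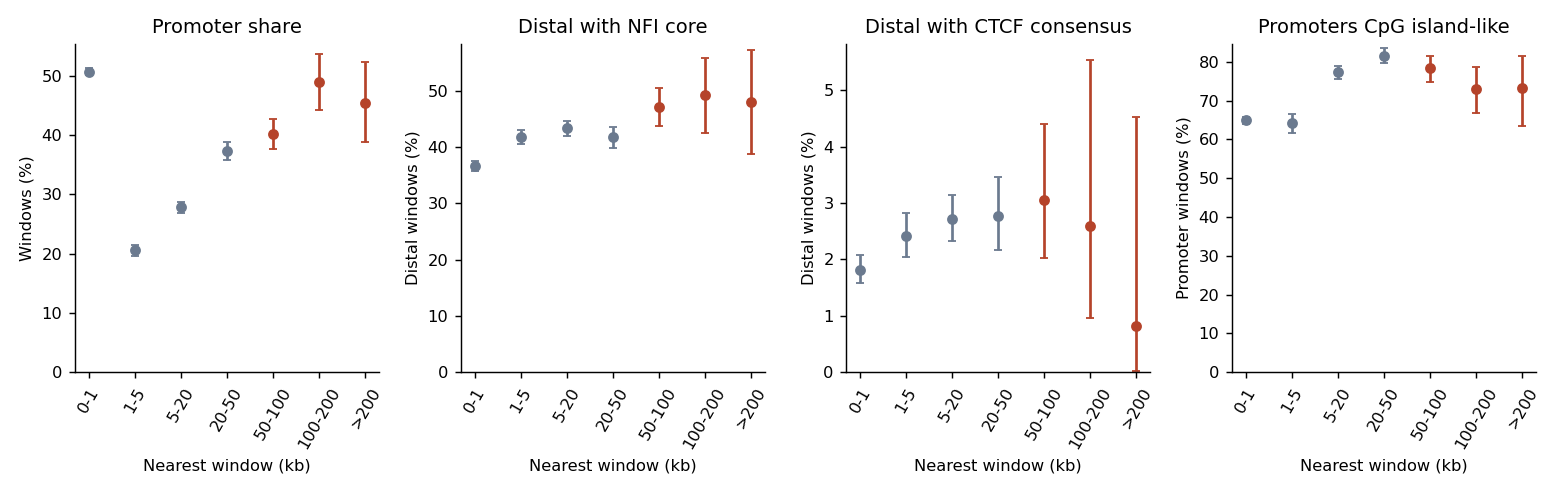
Shares by distance to the nearest window (kb), with exact 95% intervals; red bins are isolated windows and grey bins the rest. Promoter share is lowest at 1 to 5 kb (20.6%), the NFI core share of distal windows is 47.1 to 49.1% in the red bins, and the intervals of the CTCF consensus share overlap across the bins over 1 kb.

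The 12 most isolated promoter members included those of 4 genes of neurons, Sorcs1, Elavl2, Slitrk2 and Nrxn3. Gm3468 (chr14:6240537-6241036) had its only listed neighbour 2358 kb away, and was the first listed window of its chromosome. The promoter of Zik1, a zinc finger gene (chr7:11080428-11080927), stood 1927 kb from the next window. Sorcs1, a neuronal sorting receptor (chr19:50753028-50753527), stood 1896 kb from it, with 60 CpG in the window and 24 and 22 left-out calls on its sides. Elavl2, an RNA-binding protein of neurons (chr4:91042980-91043479), followed at 1527 kb, Slitrk2, a synaptic adhesion protein (chrX:63905673-63906172), at 1272 kb, Pabpc4l (chr3:46251349-46251848) at 1069 kb and Alg13, a glycosylation enzyme (chrX:140752309-140752808), at 1031 kb. Each of Sorcs1, Elavl2, Slitrk2, Pabpc4l and Alg13 was the only protein-coding gene in the 100 kb around its window.

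The remaining 5 of the 12 most isolated promoters were Gm7173 (933.5 kb), Foxp2, a forkhead transcription factor (819.5 kb), Wdr72 (801.3 kb), Nrxn3, a presynaptic adhesion protein (795.7 kb), and Efr3a, a membrane scaffold of lipid kinases (790.5 kb). The gene of Nrxn3 is 1612 kb long, that of Foxp2 540.6 kb and that of Sorcs1 534.7 kb, while those of Zik1 and Pabpc4l are 8.17 and 5.75 kb. CpG number per window varied among the 12 from 9 at Slitrk2 to 60 at Sorcs1 and Efr3a.

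The 12 most isolated distal members were 10 intergenic and 2 intronic windows. After the windows near Cdh18 and Gm16506 came those near Gm15056 (1105 kb), Khdrbs2, an RNA-binding protein (1064 kb), Zfp42, a factor of pluripotent cells (1007 kb), and Csmd1 (1006 kb). Zfp317 (762.986 kb), Rbfox1, a neuronal splicing factor (734.9 kb), Olfr761, an olfactory receptor (724.975 kb), Cadm2, a synaptic adhesion protein (723.7 kb, intronic), Gm17312 (722.7 kb) and Darc, a chemokine receptor (704.4 kb, intronic), completed them. Their windows held between 0 CpG (Csmd1) and 29 CpG (Zfp317). The window near Cdh18 had 61 and 19 left-out calls on its sides.

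By gene, 987 of 22350 protein-coding genes (4.42%) had an isolated window within 1 kb of a start site. Of the 11551 genes with any window there, 8.54% did, and the gene lists below are read against that share, with no test. Ion channel and synaptic receptor genes had a window in 21.2% of cases, and in 15 of these 54 genes (27.8%) it was isolated. These included Chrna7, a nicotinic receptor subunit (541.1 kb to the nearest window), Gabra4, a GABA receptor subunit (509.8 kb), and the glutamate receptor genes Gria3 (456.6 kb) and Gria4 (338.5 kb). Of cadherin and protocadherin genes, which encode adhesion proteins, 5 of 16 accessible ones (31.3%) were isolated, with Pcdh19 (292.7 kb), Cdh13 (121.9 kb), Cdh4 (91.6 kb) and Pcdh8 (67.3 kb) the farthest from other windows. Of a list of 21 neuronal genes, 9 had a window and 6 of the 9 (66.7%) an isolated one, among them Nrxn3, Robo1 (694.6 kb), Dlg2 (637.8 kb), Robo2 (363.979 kb) and Nefl (148.8 kb).

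Other families had shares on both sides of that of all genes. Ribosome and translation factor genes had an isolated window in 3 accessible cases (2.098%), namely Rps24, a ribosomal protein (245.3 kb), Eif1ax (116.2 kb) and Eif2s2 (100.9 kb). Mitochondrial and respiratory genes had 8 (4.60%), among them Cox7c (275.8 kb) and Mrps9 (241.6 kb). Membrane traffic genes had 12 (5.83%), with Vps41 at 648.3 kb, RNA processing genes 8 (5.88%), with Cstf2t at 266.4 kb, and zinc finger protein genes 22 (6.81%), with Zfp40 at 325.9 kb. Chromosome and cell division genes had 15 (8.24%), with Cenpw, a centromere protein, at 297.9 kb, close to the share of all genes. Solute carriers, with 18 (8.96%), were close to that share too. Ubiquitin and proteasome genes, with 26 (10.0%), and homeobox and forkhead genes, with 9 of 67 (13.4%), had higher values, and none of these differences was tested. Cytochrome P450, serpin and defensin genes had 3 of 24 (12.5%), and of 1456 olfactory and vomeronasal receptor genes 2 had a window and none an isolated one.

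**Figure D5:**
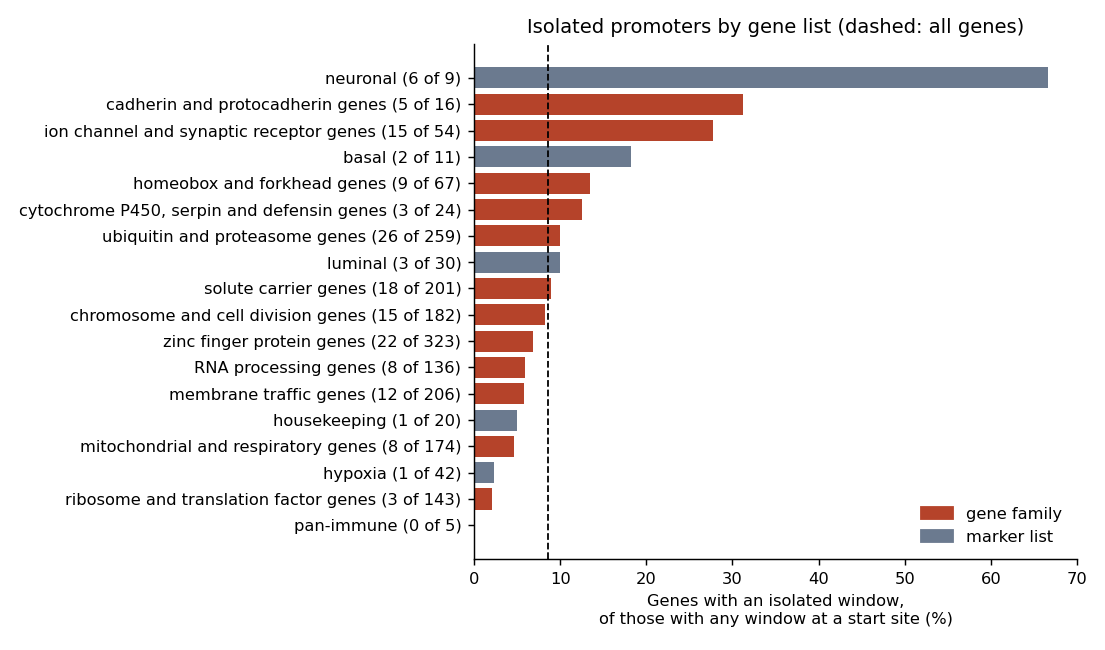
Share of genes with an isolated window among genes with any window at a start site (%), by gene family (red) and marker list (grey), for lists with at least 5 such genes, with counts in the labels; the dashed line is the share of all protein-coding genes (8.54%). Neuronal markers (66.7%), cadherins (31.3%) and ion channel and receptor genes (27.8%) lie right of the line, and ribosome and translation factor genes (2.098%) left of it.

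The share of markers with a window varied between cell type lists, and the differences were not tested. A window stood at a start site of 30 of 34 luminal and 11 of 22 basal markers of mammary epithelium. It did so for 9 of 21 neuronal, 5 of 22 pan-immune, 2 of 16 T and B cell, 2 of 14 macrophage, 1 of 16 fibroblast and 2 of 14 endothelial markers, and for all 20 housekeeping genes. Epcam held 8 windows and Hif1a 1, and no window stood within 50 kb of Ptprc, the gene of CD45. None of the windows within 50 kb of these 3 genes was isolated.

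Among luminal genes 3 of the 30 accessible promoters were isolated. Esr1, the oestrogen receptor (chr10:5636144-5636643), stood 88.6 kb from the next window and 484.5 kb on the other side. Prlr, the prolactin receptor (chr15:10179089-10179588), stood 57.2 kb away with 6 CpG in its window, and Cited1, a transcriptional co-activator (chrX:99447218-99447717), 62.8 kb away with 30 CpG. No distal member had a luminal gene as its nearest start site, while 0.854% of the distal windows of the rest did. A distal member cannot lie within 49 kb of a start site with a listed window, and 30 of the 34 luminal genes had one. The rule thus sets part of this contrast, and no conclusion is drawn from it.

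Among basal genes 2 of 11 accessible promoters were isolated, those of Oxtr, the oxytocin receptor (73.3 kb), and Lama3, a laminin chain (59.1 kb). Distal members were nearest to Oxtr, to Id4, an inhibitor of DNA binding (2 windows), to Snai2, a repressor of epithelial genes, to Mylk, the myosin light chain kinase, and to Lama3. These 6 were 0.485% of distal members, against 0.188% of the distal rest. The limit given for luminal genes holds for this contrast too. The distal window beside Oxtr was the nearest neighbour of the Oxtr promoter, 73.3 kb away.

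Of 42 accessible genes on the hypoxia list 1 promoter was isolated (2.38%), that of Arnt, the partner with which HIF1α binds DNA (chr3:95238036-95238535), 77.2 kb from the next window and 24 bp from the start site. The distal members nearest to hypoxia genes were those near Car12, a carbonic anhydrase (50.8 kb), and Ndrg1 (54.7 kb), 0.162% of distal members, against 0.605% of the distal rest. On that list 42 of 45 genes had a window at a start site, so the rule sets part of this contrast as well. Of 5 accessible pan-immune genes 0 had an isolated promoter, against 8.54% of all accessible genes. Of 2 accessible T and B cell genes 1 did, Bank1, a B cell scaffold protein (51.0 kb). Of 2 accessible macrophage genes 1 did, S100a8, a calcium-binding protein of myeloid cells (53.6 kb and 1412 kb on its sides). The sole isolated housekeeping promoter of 20 was that of Psmb2, a proteasome subunit (67.8 kb).

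Distal members lay a median of 42.9 kb from the nearest start site, against 16.5 kb in the rest. In the band of 50 to 100 kb were 45.6% of the 1238 distal members and 16.1% of the rest, and within 10 kb 16.4% of members and 36.2% of the rest. The rule fixes part of this, since a start site with a listed window cannot lie within 49 kb of a distal member. For 53.9% of distal members the nearest start site lay at most 49 kb away and so had no window within 1 kb. For 38.8% the nearest gene had a window at any of its start sites. Over all distal members, 57 (4.60%) lay within 1 kb of a start site of some other annotated transcript. For 23 of them it was a transcript of a protein-coding gene not itself annotated as protein-coding, and for 8 a lincRNA.

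Several long genes held more than 1 isolated window. Of 1028 protein-coding genes whose body held a member, 62 held 2, 11 held 3 and 2 held 4. Pde4d, a cAMP phosphodiesterase 1504 kb long, held 4 isolated windows among 14, and Fam38b, a mechanosensitive channel (376.971 kb), 4 among 6. All 3 windows in Lama3 were isolated, as were 3 of 4 in Sdk2, an adhesion protein, 3 of 5 in Cachd1 and 3 of 6 in Myo3b, a myosin. In Foxp1 3 of 9 windows were isolated, in Rbms3 3 of 13, in Zbtb20 3 of 18 and in Sox5 3 of 21. Olfactory and vomeronasal receptor genes were the nearest gene of 18 distal members (1.45%) and of 0.153% of the distal rest, and ion channel and synaptic receptor genes of 30 distal members (2.42%) and 0.766% of the distal rest.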

How the data were processed

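Pi-ATAC libraries of single MMTV-PyMT tumour cells were made by the authors. Per the methods of the study, adapters were trimmed, reads were mapped to mm9 with Bowtie2 2.1.0, duplicates (Picard 1.79) and mitochondrial reads were removed, and MACS2 summits were called on pooled cells. The MACS2 version is not given in the sources used here. The deposited table holds 50000 windows of 500 bp, ranked by q-value before deposit, as chromosome, start, end and name, with no score, count or depth. Precision is thus limited to counting error over windows.

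Distances run between midpoints. GENCODE M1 gave 45993 protein-coding start sites and the NCBIM37 (mm9) sequence the bases. Isolated windows and the rest were compared within each of 20 chromosomes by a two-sided paired sign-flip permutation test with 100000 flips, whose smallest p is 1e-05, and adjusted by Benjamini-Hochberg over 7 single and, apart, 30 motif tests, with a threshold of 0.05. The code was tested on simulated data. Shares have exact intervals that treat windows as independent. The members and gene lists were chosen with earlier results of these data known. Named genes are the 12 most isolated promoter and distal members, members at listed marker genes and those at the distance limit; other genes illustrate a list or count and were chosen after their values were seen. A planned comparison of repeat content was not run, since the sequence used does not mark repeats. Python 3.11.15, numpy 2.4.6, pandas 2.3.3 and scipy 1.17.1 were used.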

Additional observations from a re-analysis of the deposited data

How the results depend on the processing

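No paired analysis was possible because the list is 1 pooled sample and carries no replicate numbers. GC of the surroundings and gene number kept direction and call under every alternative run, and gene length under every one but the 40 to 45% GC band (0.27 on the log2 scale, adjusted p = 0.213). Gene number in that band was -0.51. A stricter q-value, repeat content and leaving out a replicate could not be run on this table.

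The promoter share passed the threshold with a distance rule of 100 kb (9.95 points), with windows at most 50 kb from a start site (13.26), against sole windows of a call (14.19), against windows with a neighbour 20 to 50 kb away (5.76), with outermost start sites only (5.27) and with promoters within 500 bp (8.05). It reversed without a limit on start site distance (-7.08) and with promoters within 2500 bp (-1.66). Since the rule also used start site distance, these calls are not independent of it. CpG at promoters no longer passed with the 100 kb rule (2.11) and within 250 bp (0.84), and reversed against the 20 to 50 kb windows (-0.30). CpG in distal windows passed with the 25 kb rule (-0.95), without a limit (-1.70), with start sites of any transcript (-1.03), with outermost start sites (-1.21) and with promoters within 500 bp (-1.73), and reversed against sole windows (0.15) and the 20 to 50 kb windows (0.14). The distal CTCF difference reversed with the 100 kb rule (-0.54).

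Of motifs at promoters (4 passed), 7 passed with the 25 kb rule, 1 with the 100 kb rule, 2 against sole windows, 0 against the 20 to 50 kb windows, 2 with promoters within 500 bp, 2 in the central 200 bp and 0 within 250 bp. At an unadjusted p below 0.05 there were 3 promoter and 1 distal motifs against the 20 to 50 kb windows. Of those in distal windows (2 passed), 1 passed with the 100 kb rule, 1 at most 50 kb from a start site, 5 without a limit, 1 against sole windows, 0 against the 20 to 50 kb windows, 1 in the central 200 bp and 1 in the GC band. Against the 20 to 50 kb windows ETS (-4.00) and SP/KLF (-0.17) at promoters reversed, and in the GC band distal SP/KLF did (0.27). The NFI core kept its direction throughout, with 5.72 points and adjusted p = 0.11 against the 20 to 50 kb windows. The bands of 250 bp and of GC were chosen after seeing the data, and the causes of these changes were not tested. Depth is unknown, so a window missing from the list may be accessible.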
